A study of Mus musculus with 6 samples.

Results

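The 9 transcription factors that set and keep the identity of β-cells were followed in sorted islet cells of newborn mice: *Pdx1*, *Nkx6-1*, *Nkx2-2*, *Neurod1*, *Pax6*, *Isl1*, *Mafa*, *Rfx6* and *Rfx3*. All probes whose RefSeq transcript belongs to one of these symbols were taken, which gave 15 probes of 56605 on the array and 9 genes of the 45616 genes and transcripts compared. The samples were pooled islets of P1 pups (postnatal day 1) that carried Wnt4eGFPCre (Wnt4 tm2(EGFP/cre)Svo), a knock-in that makes GFP and Cre from the *Wnt4* locus, and the Cre reporter mTmG at Gt(ROSA)26Sor, which turns cells from tdTomato to membrane GFP (mGFP), on crosses to C57BL/6J. No treatment was given. The methods describe both populations as islet cells of these mice, which would then share both alleles, but the labels give the genotype as Wnt4pos or Wnt4neg and 1 legend of the study names the low population as lacking Wnt4eGFPCre, so whether the Wnt4low cells carried it is not settled. Cells with mGFP, which had expressed *Wnt4* at some time before the sort, are called Wnt4hi (GFPpositive in the labels), and cells without it Wnt4low (GFPnegative). There were 3 arrays of each: Wnt4hi replicates 2, 3 and 4 and Wnt4low replicates 1, 3 and 4, each from islets of 3 or 4 pups. For the array sort no gate other than GFP is stated (the flow analyses also used singlet, live-cell and red-fluorescence gates), none of which selects β-cells, so that both populations could hold any cell type of a hand-picked islet, and mGFP marks descent, not transcription of *Wnt4* at the time of the sort.

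Pancreatic endocrine cells arise from progenitors in which a cascade of transcription factors is switched on, and a smaller set then stays on for the life of the β-cell. PDX1, NKX6-1 and MAFA are largely restricted to β-cells within the mature islet and bind the promoters of insulin and of genes of glucose sensing. NKX2-2, NEUROD1, PAX6, ISL1, RFX6 and RFX3 are also active in other endocrine cells, where they hold the hormone programs in place. In rodents, β-cells gain *Mafa* around birth, as they mature.

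Of the 9 factors, 8 were higher in Wnt4hi cells and passed the unadjusted threshold of 0.05 that the study used, against 5.06% of all genes and transcripts in this direction (and 5.53% in the other). In each of these 8 genes every Wnt4hi array lay above every Wnt4low array, which held for 9.63% of all genes and transcripts. The log2 fold changes of the 8 ran from 0.82 for *Rfx3* to 1.84 for *Pdx1*. The exception was *Mafa*, at −0.051. The median of the 9 was 1.35, beside 0.07 over all genes and transcripts, of which 63.6% had a value above 0. After Benjamini-Hochberg adjustment over all genes, 1 of the 9 passed, *Isl1*, against 0.441% of all genes and transcripts in either direction. Values are log2 intensities after background correction and quantile normalization, differences are Wnt4hi minus Wnt4low, and tests are limma's, where intervals cover 95%. With 3 arrays against 3, an exact permutation test of 1 gene cannot give a two-sided p below 0.1. The labels do not say that replicates are independent litters, so the p values measure the spread between these pools.

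**Figure D1:**
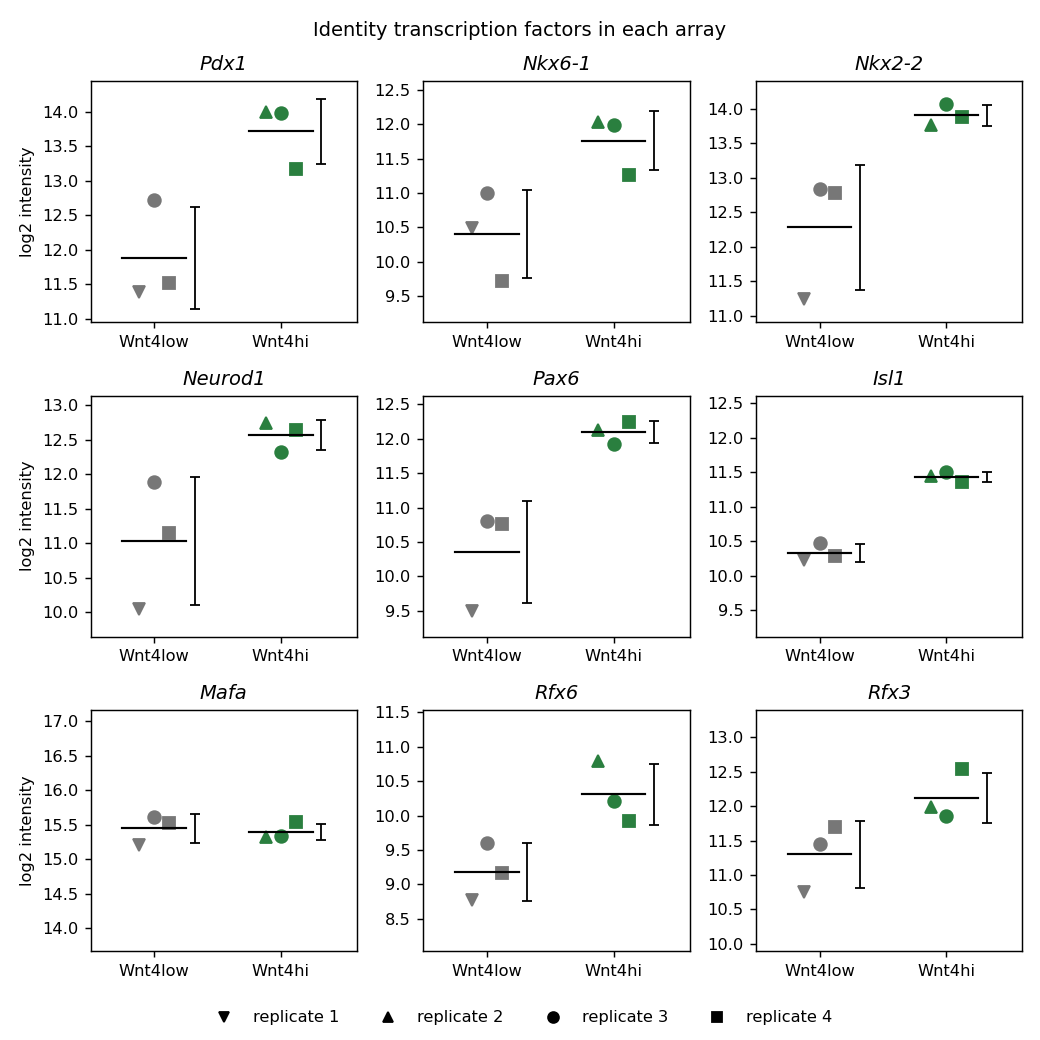
Log2 intensity of the 9 factors on each array of Wnt4low (grey) and Wnt4hi (green) cells, with the mean as a line, the SD as a bar and the replicate number as the symbol. All panels span the same log2 range. The populations are apart for 8 genes and overlap for Mafa.

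Promoters of the factors were searched, since several of these factors are known to act on each other's genes. Those of *Pdx1*, *Nkx2-2*, *Neurod1* and *Isl1* are printed, for the reason given with each, and all of them hold a match. Not printed are those of *Nkx6-1* and *Pax6*, with matches named below, and of *Rfx6* and *Rfx3*, which held no match. Each promoter is the 250 bases before the RefSeq start in GRCm38.p6, on the strand of the gene, and capitals mark matches to 5 short motifs. *Pdx1* (the largest difference) is from chr5:147269847-147270096 on the + strand, *Nkx2-2* (with an E-box and an NK2 site) from chr2:147186403-147186652 on the − strand, *Neurod1* (with neighbouring MAF cores) from chr2:79456637-79456886 on the − strand and *Isl1* (the adjusted call) from chr13:116309689-116309938 on the − strand.
Pdx1: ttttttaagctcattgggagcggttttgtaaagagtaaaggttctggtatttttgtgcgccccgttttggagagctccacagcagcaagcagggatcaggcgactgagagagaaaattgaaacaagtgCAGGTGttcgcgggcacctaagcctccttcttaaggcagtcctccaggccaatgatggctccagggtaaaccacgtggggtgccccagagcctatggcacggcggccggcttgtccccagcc
Nkx2-2: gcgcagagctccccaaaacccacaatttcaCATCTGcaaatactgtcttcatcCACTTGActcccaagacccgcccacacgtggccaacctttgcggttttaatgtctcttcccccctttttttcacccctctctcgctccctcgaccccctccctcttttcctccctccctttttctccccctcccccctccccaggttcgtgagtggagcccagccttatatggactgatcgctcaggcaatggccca
Neurod1: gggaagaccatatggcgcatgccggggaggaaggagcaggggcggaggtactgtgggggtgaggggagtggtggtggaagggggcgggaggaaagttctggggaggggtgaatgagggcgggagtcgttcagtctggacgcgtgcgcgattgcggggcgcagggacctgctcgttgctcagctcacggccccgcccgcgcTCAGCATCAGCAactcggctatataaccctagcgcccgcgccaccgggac
Isl1: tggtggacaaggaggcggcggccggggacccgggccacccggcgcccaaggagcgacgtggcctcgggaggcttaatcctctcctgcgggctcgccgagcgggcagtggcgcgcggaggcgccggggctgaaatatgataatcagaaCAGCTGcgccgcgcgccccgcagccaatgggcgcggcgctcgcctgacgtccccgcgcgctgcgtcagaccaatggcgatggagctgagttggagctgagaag
The table held 8 of the 9 genes with 9 promoters, and no entry for *Mafa*. The E-box searched was CAGNTG, the kind of site that NEUROD1 and its E-protein partners bind. It was found in 3 of the 9 promoters, in *Pdx1*, *Nkx2-2* and *Isl1*, and in 44.8% of 32851 promoter windows of the same length. A core of MAF sites, TGCTGA, was found in 2 of the 9, once in *Nkx6-1* and in 2 adjoining copies in *Neurod1*, and in 16.1% of all. The NK2 site TNAAGTG was found in *Nkx2-2* itself (10.1% of all), and GTTGCC, the core of the X-box that RFX factors bind, in 1 of the *Pax6* promoters (10.4% of all). The homeodomain core TAATTA was in 0 of the 9 and in 4.84% of all. Both strands were searched, and the motifs did not overlap. These are letter matches in a short window, not measured sites.

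*Pdx1* heads the β-cell program and activates insulin and *Slc2a2*. Its log2 intensity was 14.00, 13.98 and 13.17 on Wnt4hi replicates 2, 3 and 4 and 11.39, 12.72 and 11.52 on Wnt4low replicates 1, 3 and 4. The highest Wnt4low array, replicate 3, stayed 0.45 below the lowest Wnt4hi array, replicate 4. The means were 13.72 ± 0.47 (SD, n = 3) and 11.88 ± 0.73 (SD, n = 3), a 3.58-fold difference (1.84 on the log2 scale, standard error 0.42, interval 0.81 to 2.87, adjusted p = 0.173). It was the largest of the 9 differences, and 0.219% of all genes and transcripts had a larger one.

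*Nkx6-1* keeps β-cells from taking on features of other endocrine cells. It was at 12.03, 11.99 and 11.26 on the Wnt4hi arrays and at 10.50, 11.00 and 9.73 on the Wnt4low arrays. As for *Pdx1*, replicate 4 was the lowest of the Wnt4hi arrays and replicate 3 the highest of the Wnt4low arrays, with a gap of 0.26 between them. The log2 fold change was 1.35 (standard error 0.38, interval 0.44 to 2.27, adjusted p = 0.259).

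*Mafa*, the third of the factors restricted to β-cells and an activator of insulin genes in response to glucose, was at 15.32, 15.33 and 15.53 on the Wnt4hi arrays and at 15.21, 15.62 and 15.52 on the Wnt4low arrays. The populations overlapped, and the lowest and the highest value were both Wnt4low arrays. The means were 15.40 ± 0.12 (SD, n = 3) and 15.45 ± 0.21 (SD, n = 3). The difference of −0.051 had an interval from −0.44 to 0.34 (adjusted p = 0.952), which leaves out the differences measured for the other 8 genes. *Mafa* rests on 1 probe with 1 spot. That spot read 40912 to 50277 units over a local background of 31 to 34, and the scanner marked it as saturated on 0 of the 6 arrays. No other probe of the gene was there to set against it. The mean level of this probe was at the 99.6th percentile of all genes and transcripts, although *Mafa* is thought of as low in newborn β-cells, and whether the probe is specific to *Mafa* was not checked here.

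*Nkx2-2* is needed for β-cells to form and represses genes of other islet cells. Its log2 intensity was 13.77, 14.07 and 13.88 on the Wnt4hi arrays and 11.24, 12.84 and 12.78 on the Wnt4low arrays. The Wnt4hi arrays lay close together (SD 0.16) while the Wnt4low arrays were spread (SD 0.91), mostly by replicate 1. The difference was 1.62 (standard error 0.44, interval 0.55 to 2.70, adjusted p = 0.249). The other probe, for a different transcript of the gene, differed by 1.97 (standard error 0.52), with its populations also apart.

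*Neurod1* encodes a basic helix-loop-helix protein that follows *Neurog3* in the endocrine cascade and activates insulin. It was at 12.74, 12.32 and 12.64 on the Wnt4hi arrays and at 10.04, 11.90 and 11.15 on the Wnt4low arrays. Wnt4low replicate 3 came within 0.43 of the lowest Wnt4hi array, whereas replicate 1 was the lowest by far. This amounted to 1.54 (standard error 0.46, interval 0.42 to 2.66, adjusted p = 0.294).

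*Pax6*, a paired-box and homeodomain factor for hormone genes of all islet cells, was at 12.13, 11.93 and 12.25 on the Wnt4hi arrays and at 9.50, 10.80 and 10.76 on the Wnt4low arrays. Its gap between the populations, 1.13, was the widest of the 8 genes. The means differed by 1.75 (standard error 0.37, interval 0.85 to 2.64, adjusted p = 0.146). Of its 3 other probes, those at 1.64 and 1.90 had populations that did not overlap. The remaining probe differed by 0.63, with an interval from −1.01 to 2.27. On that probe the Wnt4hi arrays 2, 3 and 4 were at 11.22, 9.91 and 9.24 and the Wnt4low arrays 1, 3 and 4 at 10.58, 9.31 and 8.59, so that the spread within a population exceeded the difference between them.

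*Isl1*, a LIM-homeodomain factor of all islet endocrine cells, was at 11.45, 11.50 and 11.35 on the Wnt4hi arrays and at 10.23, 10.47 and 10.28 on the Wnt4low arrays. The arrays of each population lay closer together than for any other of the 8 genes, with an SD of 0.07 and 0.13. The log2 fold change of 1.11 was not among the largest, but its standard error was 0.13 (interval 0.78 to 1.43, adjusted p = 0.0435). The other probe differed by 1.36 (standard error 0.17), and in a fit with every probe as a feature of its own both probes of *Isl1* passed after adjustment (adjusted p = 0.0452 and 0.0445), against 0.477% of all probes. The adjusted call was lost when any 1 of the 6 arrays was left out, although the log2 fold change then stayed between 1.05 and 1.18.

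*Rfx6* and *Rfx3* encode winged-helix factors of the X-box. RFX6 acts downstream of *Neurog3* and keeps up calcium channels and insulin release in β-cells, and RFX3 is known for cilium genes and for endocrine differentiation. *Rfx6* was at 10.79, 10.22 and 9.92 on the Wnt4hi arrays and at 8.77, 9.60 and 9.17 on the Wnt4low arrays. All Wnt4hi arrays were above the Wnt4low arrays, by at least 0.32. The difference was 1.13 (standard error 0.30, interval 0.39 to 1.87, adjusted p = 0.242).

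*Rfx3* was at 11.98, 11.85 and 12.53 on the Wnt4hi arrays and at 10.75, 11.45 and 11.70 on the Wnt4low arrays. Its populations were the closest of the 8, with 0.15 between Wnt4hi replicate 3 and Wnt4low replicate 4. The means differed by 0.82 (standard error 0.30, interval 0.08 to 1.56, adjusted p = 0.411). It no longer passed the unadjusted threshold in 4 of the 6 fits that left out 1 array, those without Wnt4hi replicate 2 (0.89) or 4 (0.62) and without Wnt4low replicate 1 (0.55) or 3 (0.90). The other probe of *Rfx3* differed by 1.05 (standard error 0.25).

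Over all 15 probes, 13 were higher at the unadjusted threshold with populations that did not overlap, against 4.88% and 9.29% of all probes. The other 2 were the probe of *Mafa* and the *Pax6* probe described above.

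**Figure D2:**
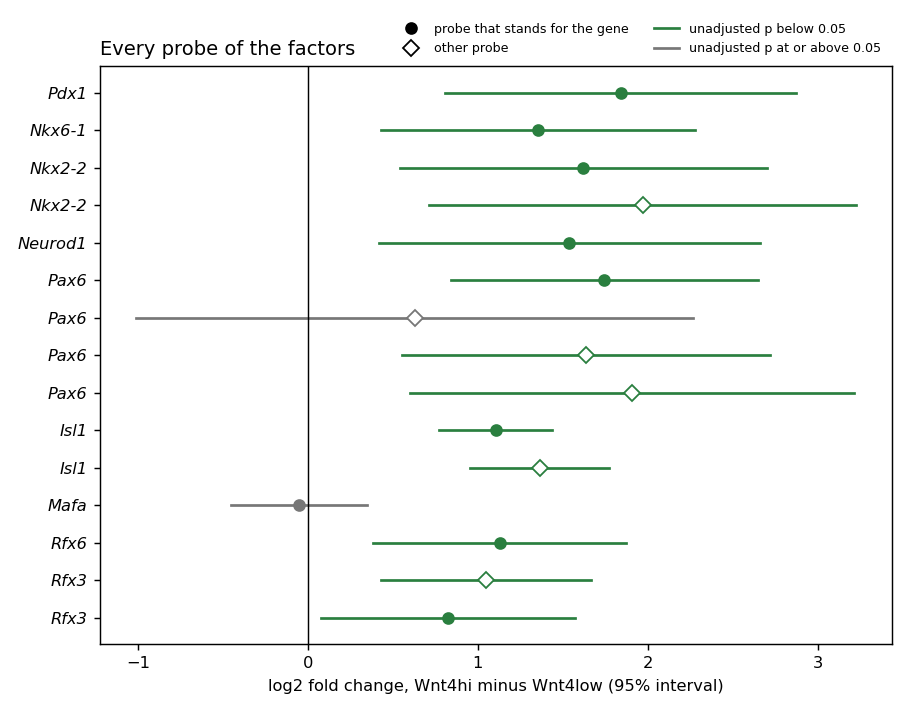
Log2 fold change (Wnt4hi minus Wnt4low) with its 95% interval for each of the 15 probes, filled where the probe stands for the gene. The 13 green probes are past the unadjusted threshold, and the grey ones are Mafa and 1 probe of Pax6.

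The Wnt4low arrays differed among themselves in the same order for most factors. Replicate 1 was the lowest Wnt4low array for 7 of the 8 genes, all but *Nkx6-1*, and replicate 3 the highest for 7 of the 8, all but *Rfx3*. The SD was larger among Wnt4low than among Wnt4hi arrays for 7 of the 8, by 1.36 times for *Rfx3* to 5.82 times for *Nkx2-2*, with *Rfx6* as the exception. Centred on the mean over all arrays, the mean of the 9 factors was −1.13, −0.15 and −0.57 on Wnt4low replicates 1, 3 and 4 and 0.72, 0.60 and 0.53 on Wnt4hi replicates 2, 3 and 4. A list of 18 pan-endocrine genes (granins, prohormone convertases and vesicle proteins, without the 9 factors) stood at −0.90, −0.08 and −0.43 and at 0.42, 0.42 and 0.58 on the same arrays. The summed intensity of 20 endothelial markers ran the other way, with 121848, 58211 and 72440 on the Wnt4low arrays and 13079, 9919 and 8969 on the Wnt4hi arrays. All 20 endothelial markers had a log2 fold change below 0 and 18 passed the unadjusted threshold, against 5.53% of all genes and transcripts in this direction. *Tek* and *Tie1* were well above background on 0 of the 3 Wnt4hi arrays. Mesenchymal markers were lower in Wnt4hi cells at the unadjusted threshold for 9 of 13, with summed intensities of 42270 to 90611 against 112854 to 153106, and leukocyte markers for 6 of 11. The part of these cells in the differences of the factors was not tested. In such sorted pools, fewer endocrine cells and less RNA of a gene per cell cannot be told apart.

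**Figure D3:**
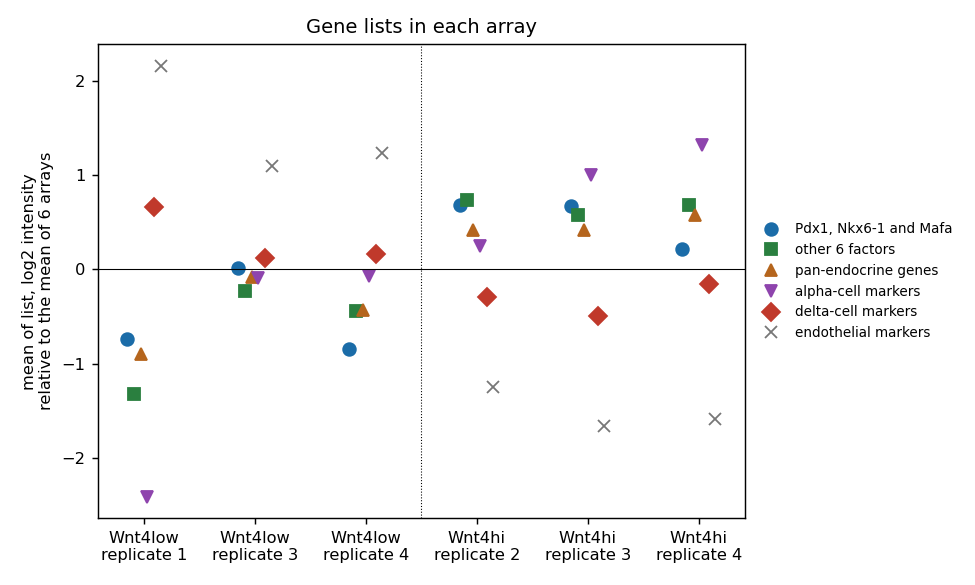
Mean log2 intensity of 6 gene lists on each array, relative to the mean of the 6 arrays, with the Wnt4low arrays on the left of the dotted line. Both groups of factors and the pan-endocrine genes were lowest or near lowest on Wnt4low replicate 1, where endothelial markers were highest.

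The factors were therefore also compared after each array was scaled to the mean of the 18 pan-endocrine genes, which lowers every log2 fold change by 0.94, that of the median gene included. On this scale 2 of the 9 factors were higher at the unadjusted threshold, against 0.292% of all genes and transcripts. *Pdx1* was at 13.59, 13.56 and 12.59 on the Wnt4hi arrays and at 12.29, 12.81 and 11.95 on the Wnt4low arrays (log2 fold change 0.90, interval 0.10 to 1.70, adjusted p = 0.0626), and replicates 4 of Wnt4hi and 3 of Wnt4low now overlapped. *Pax6* was at 11.71, 11.51 and 11.67 against 10.40, 10.88 and 11.20, with populations that stayed apart, as for 0.246% of all genes and transcripts (0.80, interval 0.03 to 1.58, adjusted p = 0.0725). *Nkx2-2* was also apart between the populations, at 0.68 (interval −0.11 to 1.47, adjusted p = 0.115), and *Neurod1* was at 0.60 (interval −0.19 to 1.39). *Nkx6-1* was at 0.41, *Rfx6* at 0.19, *Isl1* at 0.16 and *Rfx3* at −0.12, with intervals that include 0. *Mafa* was lower in Wnt4hi cells on this scale, at 14.91, 14.92 and 14.96 against 16.10, 15.70 and 15.95 (−0.99, interval −1.76 to −0.23, adjusted p = 0.0481). Its populations no longer overlapped. On this scale 63.5% of all genes and transcripts were lower at the unadjusted threshold, 68.3% were lower without overlap and 27.2% passed after adjustment. After this scaling the standard errors of the 9 factors were nearly alike, from 0.38 for *Mafa* to 0.41 for *Nkx6-1*. That of *Isl1* was 0.38, beside 0.13 before. The intervals and p values on this scale therefore follow mostly the size of the difference, and little of each gene's own spread between arrays.

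**Figure D4:**
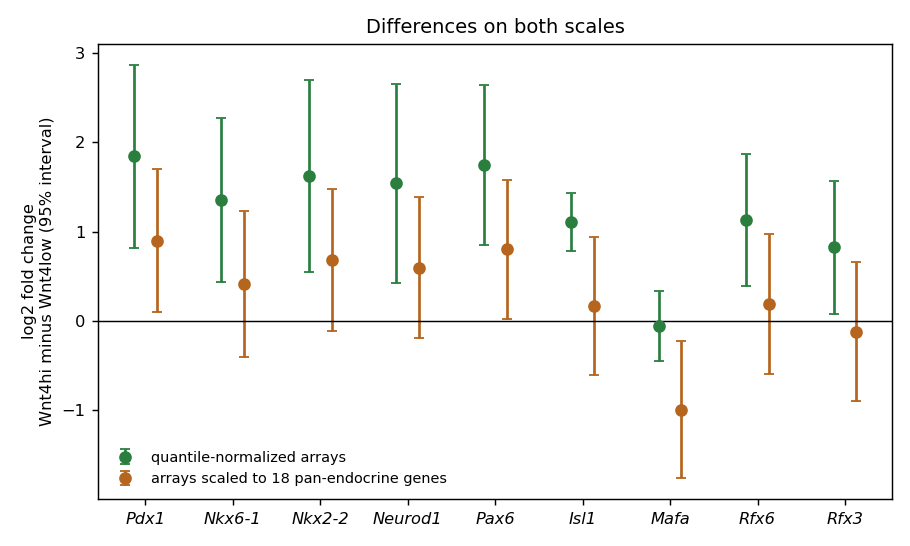
Log2 fold change (Wnt4hi minus Wnt4low) of each factor with its 95% interval, on quantile-normalized arrays (green) and after scaling the arrays to 18 pan-endocrine genes (brown). After scaling the intervals of Pdx1 and Pax6 stay above 0 and that of Mafa lies below 0.

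The factors are known to act on a shared set of β-cell genes, and 19 such targets that are not themselves among the 9 were compared. Of these, 18 were higher in Wnt4hi cells and 14 passed the unadjusted threshold (5.06% of all genes and transcripts did so in this direction), with a median log2 fold change of 1.17 and 15 sets of arrays that did not overlap (9.63% of all). None passed after adjustment over all genes in limma (0.441% of all genes and transcripts did), where 14 had an unadjusted p below 0.05. Genes of glucose sensing were among those that passed: the glucose transporter *Slc2a2* (1.68, standard error 0.50) and *Abcc8*, a subunit of the ATP-sensitive potassium channel (1.92, standard error 0.57), with its partner *Kcnj11* at 0.88. The hormone convertases *Pcsk1* (1.54) and *Pcsk2* (1.21), the zinc transporter *Slc30a8* (1.73) and the granule protein gene *Sytl4* (1.43) passed as well. So did *Ero1b* (1.63), an oxidase of protein folding, the gap junction gene *Gjd2* (1.19), the β-cell peptide *Iapp* (0.97), the incretin receptor *Glp1r* (0.94) and the calcium channel *Cacna1d* (0.92). *Ins2* differed by 0.56 and passed, whereas *Ins1*, at 0.43, did not (interval −0.06 to 0.91). Also short of the threshold were *G6pc2* (1.69, interval −0.20 to 3.58), whose arrays did not overlap, *Syt7* (0.69, interval −1.23 to 2.61) and *Ffar1*, which was well above background on 2 of 3 arrays of each population. *Ucn3*, a late marker of β-cell maturation, was at 9.08, 11.45 and 11.03 on the Wnt4hi arrays and at 8.79, 10.83 and 9.22 on the Wnt4low arrays, with a difference of 0.90 and a standard error of 0.78. Its arrays overlapped, with a low value on Wnt4hi replicate 2, the array on which *Pdx1* was highest. With the 3 factors that are targets of others (*Pdx1*, *Nkx6-1* and *Mafa*) the list held 22 genes, of which 16 passed, but between 10 and 16 when 1 array was left out (10 without Wnt4hi replicate 3 or 4). After scaling to the pan-endocrine genes 2 of the 22 were higher at that threshold, against 0.292% of all genes and transcripts.

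Paralogues of the factors were read as a comparison within each family. Of 27, 3 were higher and 1 was lower in Wnt4hi cells at the unadjusted threshold, against 5.06% and 5.53% of all genes and transcripts. The median was 0.09. None passed after adjustment in limma, where 0.441% of all genes and transcripts did. Within the MAF family, *Mafg*, a small MAF protein, was higher by 0.66 (standard error 0.16) and *Maf* (c-MAF), which is also known from non-endocrine cells, was lower, at −1.52 (standard error 0.34). *Maff* (0.47), *Mafk* (−0.090) and *Nrl* (0.05) did not pass. In the RFX family the 6 paralogues of *Rfx3* and *Rfx6* ran from −0.95 for *Rfx8* to 0.33 for *Rfx2*, and 0 of the 6 passed in limma at an unadjusted p below 0.05. Only *Rfx1* among them was well above background on all 6 arrays, with 12.47, 12.09 and 11.61 on the Wnt4hi arrays and 11.75, 11.88 and 12.01 on the Wnt4low arrays. *Isl2* was at −0.91 (standard error 0.64) with overlapping arrays. In the NK2 family, *Nkx2-4* was higher by 0.52 (standard error 0.15), and *Nkx2-3*, at −0.57, did not pass.

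Cofactors that bind or modify these factors were counted next. Of 20, 2 were higher and 3 were lower at the unadjusted threshold, against 5.06% and 5.53% of all genes and transcripts. The median was 0.03. *Ldb2*, a LIM-domain binding protein, was at 8.61, 7.94 and 8.09 on the Wnt4hi arrays and at 11.09, 10.46 and 11.40 on the Wnt4low arrays (−2.77, standard error 0.30, adjusted p = 0.0366). Its relative *Ldb1*, the partner of ISL1 in islets and named here after its values were seen, was at −0.30 (standard error 0.25), with overlapping arrays. The E-proteins *Tcf4* (−1.85, standard error 0.27, adjusted p = 0.0661) and *Tcf12* (−0.72, standard error 0.22), which pair with NEUROD1-type factors, were lower in Wnt4hi cells at the unadjusted threshold. *Dnmt3a*, a DNA methyltransferase, was higher by 0.97 (standard error 0.32), and so was *Meis2*, a homeodomain partner of PBX proteins named after its values were seen, by 0.78 with overlapping arrays. Whether the endothelial and mesenchymal markers given above move with *Ldb2*, *Tcf4* and *Maf* for a shared reason was not tested.

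Other islet transcription factors were compared to see whether the difference was one of β-cell factors. Of 31, 12 were higher and 2 were lower at the unadjusted threshold, against 5.06% and 5.53% of all genes and transcripts. The median was 0.81, and 0 passed after adjustment in limma, where 0.441% of all genes and transcripts did. *Irx1* was higher by 2.02 (standard error 0.82), and *Myt1*, a zinc-finger factor of endocrine differentiation, by 1.73 (standard error 0.38, adjusted p = 0.159). *Hhex*, here counted as a δ-cell factor, was at 7.99, 8.61 and 9.16 against 10.48, 10.20 and 10.34 (−1.75, standard error 0.30, adjusted p = 0.0920). *Sox11*, a factor of progenitor and mesenchymal cells, was at 7.81, 7.44 and 6.60 against 11.42, 9.91 and 10.47 (−3.32, standard error 0.47, adjusted p = 0.0630). Beside these, 8 of 8 α-cell markers had a log2 fold change above 0 (63.6% of all genes and transcripts did). Of the 8, a list that holds *Irx1* too, 4 passed (median 1.71), against 5.06% of all. Of 6 δ-cell markers, *Hhex* among them, 3 were lower and 1 was higher at the unadjusted threshold (5.53% and 5.06% of all genes and transcripts). Named after their values were seen, these were somatostatin *Sst* (−0.56) and *Lepr* (−1.78) beside *Hhex*, and *Rbp4* (0.53). Whether *Hhex* and *Lepr* move with the endothelial and mesenchymal markers for a shared reason was not tested.

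**Figure D5:**
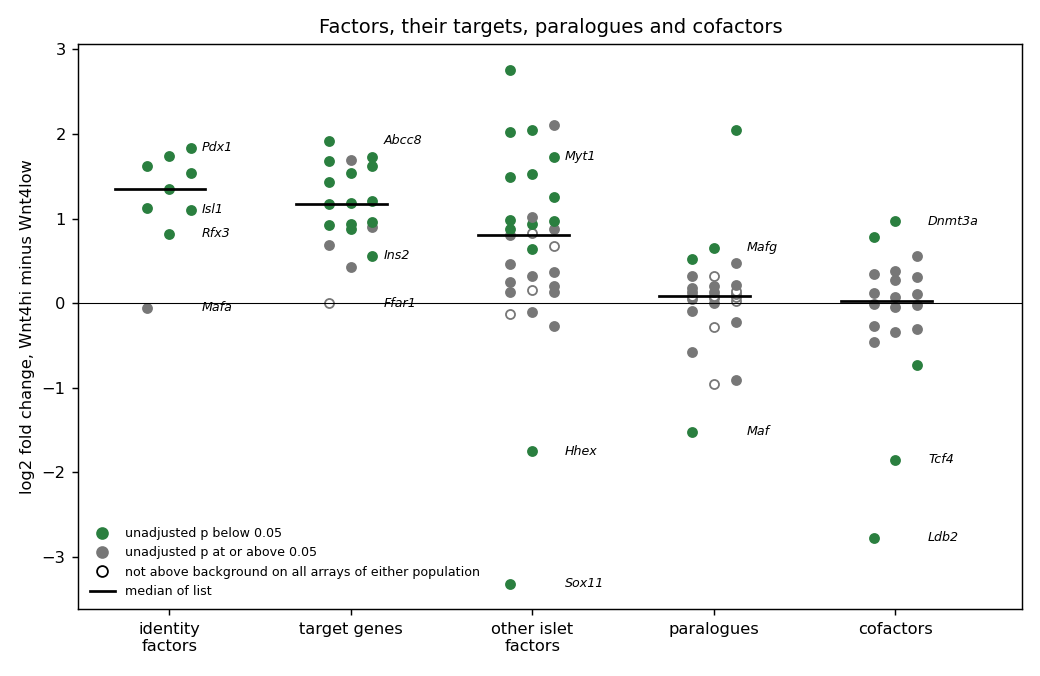
Log2 fold change (Wnt4hi minus Wnt4low) of each gene in 5 lists, in green where the unadjusted p is below 0.05 and open where neither population has the gene well above background throughout. Lines are medians, at 1.35 for the 9 factors, 1.17 for the targets (the factors left out), 0.81, 0.09 and 0.03.

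The pattern of each factor over the 6 arrays was set against that of 16146 other genes (well above background throughout), by the root mean square difference of log2 values centred on their mean. Among the 5 nearest to the mean of the 9 factors were *Krt8*, a keratin of simple epithelia (0.12 log2 units), the convertase *Pcsk2* (0.13), *D030018L15Rik* and *Nipal3* (both 0.14). Nearest to *Pdx1* were *Cdhr1* (0.23) and *Stard10*, a lipid-transfer protein of β-cells (0.24), and nearest to *Nkx6-1* were *Cyb5rl* (0.16) and the antisense gene *Hnf1aos1* (0.19). *Neurod1* was nearest to *Slc38a5* (0.09), *Isl1* to *Cul9* (0.11), *Rfx6* to *Noct* (0.11) and *Rfx3* to *Ubqln2* (0.07). *Rbm47* was among the 2 nearest genes of both *Nkx2-2* (0.12) and *Pax6* (0.17). Among the factors themselves, *Nkx2-2*, *Neurod1* and *Pax6* lay nearest to each other (0.21 to 0.30), *Pdx1* nearest to *Nkx6-1* (0.38) and *Isl1* nearest to *Rfx6* (0.29). These likenesses rest on 6 arrays.

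As a check of the sort, *Wnt4* itself was at 11.20, 10.53 and 10.77 on the Wnt4hi arrays and at 9.85, 10.10 and 9.31 on the Wnt4low arrays, a difference of 1.08 (standard error 0.27, adjusted p = 0.210). On every array the scanner marked all 9 factors as well above background. Of 59305 spots that are not controls, 70.5% to 79.5% were well above background per array, and 0 were saturated.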

How the data were processed

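The authors deposited, per the file headers, the Agilent Feature Extraction (9.1 in the submitters' processing notes) output of 6 1-color arrays (Cy5), holding for every spot a median signal intensity, its surrounding background, neither normalized, and a processed intensity. Normalized log2 values were deposited as well. The cDNA had been amplified from picogram amounts of RNA. Following the paper's methods, intensities were corrected with normexp (offset 50), normalized by quantiles and compared with limma 3.58.1 (R 4.3.3, lmFit and eBayes, no covariates). Outlier and non-uniform spots were left out, spots of a probe averaged, and the probe with the highest mean stood for a gene. All arrays were used, in groups taken from the sample titles. RefSeq names were matched to symbols of GRCm38.p6 (25126 of 27845), for names only, since the array design names an older build. Promoters are RefSeq's, of GRCm38.p6. P values were adjusted by Benjamini-Hochberg over 45616 genes and transcripts.

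The members and lists were chosen with earlier results of these data known. Named were all members and targets, the MAF, RFX and ISL paralogues, up to 6 genes per list with the largest change among those without overlap that were well above background throughout the higher population, and the nearest patterns. Some genes that the rule names are not reported here. The calculation was tested on simulated data. The alternatives changed background, normalization, filter, outlier spots, probe, variance model, values, block, scaling and arrays. The number of arrays limits the precision.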

Additional observations from a re-analysis of the deposited data

How the results depend on the processing

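In 24 alternatives the 8 factors other than *Mafa* kept a log2 fold change above 0, except *Rfx3* after scaling to the pan-endocrine list (−0.12) or to β-cell markers (−0.17, a setting chosen after seeing the data, as was scaling to housekeeping genes). *Mafa* turned positive with cyclic loess (0.11), with housekeeping scaling (0.41, where the median of all genes shifts by 0.46) and without Wnt4low replicate 3 (0.034). Of the 10 housekeeping genes 7 were lower in Wnt4hi cells and 3 higher before scaling. *B2m* (−2.50) and *Tbp* (−1.17) were the lowest, so this reference itself differed between the populations. The count of factors higher at the unadjusted threshold was 8, beside 5.06% of all genes and transcripts in the main fit. It was 7 to 8 with 1 array left out (3.54% to 5.28% of all) and 7 with the methods' t-test (without *Rfx3*, 4.83% of all). It was 2 with the pan-endocrine (0.292% of all), 0 with the β-cell (0.0921% of all) and 8 with the housekeeping scaling (48% of all). With the β-cell scaling the fit gave all 9 factors the same standard error, 0.535. Its p values thus follow the size of the difference, not the spread of each gene. The count higher in Wnt4hi cells without overlap was 8 to 8 with 1 array left out. There 14.6% to 19% of all genes and transcripts were higher without overlap, against 9.63% with all arrays. This count was 2 with the pan-endocrine (0.246% of all), 3 with the β-cell (0.186% of all) and 9, *Mafa* included, with the housekeeping scaling (53.3% of all). With the pan-endocrine and the β-cell scaling *Mafa* was lower without overlap, as were 68.3% of all on the pan-endocrine scale. The adjusted count of 1 became 0 without background subtraction, with an offset of 16, the processed intensity, the methods' t-test, robust estimation with a trend, a fixed replicate block and the β-cell scaling, and was 0 to 0 with 1 array left out. Of all genes and transcripts, 0% to 0.535% passed after adjustment in these settings, but 9.26% with the β-cell scaling. With the pan-endocrine scaling, where 27.2% of all passed, the 1 factor is *Mafa*, lower in Wnt4hi cells. The count of 16 targets was 9 with the methods' t-test, 2 with the pan-endocrine scaling, 0 with the β-cell scaling and 10 to 16 with 1 array left out. In each setting the share of all genes and transcripts is the one given for the factors at the unadjusted threshold. *Pdx1* ranged from 0.85 to 2.30 over all alternatives. When the replicate number entered as a fixed block, 7 of the 8 passed the unadjusted threshold, all but *Rfx3* (4.56% of all genes and transcripts). Log2 fold changes of the 8 then ran from 0.62 for *Rfx3* to 1.46 for *Pdx1*. With a random replicate block 8 passed (5.43% of all). Deviations of the same-numbered arrays correlated at −0.032 (replicate 3) and 0.16 (replicate 4), and only these 2 numbers are shared. In the authors' log2 table, where no row was matched to *Pax6*, 7 of the 8 factors held passed (5.34% of all genes and transcripts there). The column of Wnt4hi replicate 2 there correlated with its own array at 0.29, against 0.89 to 0.91 for the other 5, and at 0.30 with Wnt4hi replicate 3, so it may hold another sample and the count of 7 rests partly on it. *Mafa* rests on a single probe.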
